A study of Mus musculus with 6 samples.

Results

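The genes described here mark the oligodendrocyte lineage, from the factors that set up its progenitors to the proteins of finished myelin. They were taken by identifier, as a list of 9 Ensembl gene rows. All 9 had a row among the 17144 gene rows of the arrays, and they comprise 6 progenitor genes (Olig1, Olig2, Nkx2-2, Pdgfra, Cspg4 and Gpr17) and 3 myelin genes (Mbp, Cnp and Mog). RNA was measured on Affymetrix arrays in wild type mouse embryonic stem cells (ESCs) and in neural progenitor cells (NPCs) obtained from them in culture, each represented by 3 biological replicates on an array of their own. The ESCs belong to V6.5, a single line of blastocyst origin on a 129SvJae/C57B6 F1 background that was kept in serum with LIF, a cytokine that holds ESCs in the pluripotent state. The NPCs share that background and were differentiated from the same line, then propagated in N3 medium with the mitogens bFGF and EGF on polyornithine and laminin. No group carried a transgene or a deletion. The sources used here do not say whether the NPC arrays (NP106, NP107 and NP39, called replicates 1, 2 and 3) stem from separate differentiations, so p-values measure the spread between these samples, which may be partly technical.

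In the central nervous system, oligodendrocytes arise from neural progenitors that first switch on transcription factors such as OLIG2 and NKX2-2 and then become dividing oligodendrocyte precursors, which carry the PDGF alpha receptor and the NG2 proteoglycan. GPR17 marks precursors that have committed to differentiate. MBP, CNP and MOG are myelin proteins, of which CNP appears before compact myelin and MOG is among the last to appear. OLIG2 and NKX2-2 also pattern the ventral neural tube before any oligodendrocyte forms, and OLIG2 is made by dividing neural progenitors that give rise to neurons and astrocytes as well. A rise in these factors therefore does not by itself place a culture at the precursor stage.

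The 3 transcription factors of the list were far higher in NPCs, whereas the surface markers of precursors and the late myelin genes were not called higher. Of the 6 progenitor genes, 3 were called higher in NPCs (Olig1, Olig2 and Nkx2-2), 1 was called lower (Pdgfra) and 2 were not called (Cspg4 and Gpr17). Among the 3 myelin genes only Cnp was called, and it was higher in NPCs. Calls required both a difference of means over 1.5-fold and a limma p-value that stayed under 0.05 after Benjamini-Hochberg adjustment over all 17144 rows. Over all rows, 15.4% were called higher in NPCs and 18.7% lower, a split that turned to 19.3% and 15.4% when each array was centred on its median. The share called higher was thus 3 of 6 and 1 of 3 against that background, in lists too short for more than a count. The median difference of NPCs from ESCs was 1.88 on the log2 scale over the 6 progenitor genes and -0.048 over the 3 myelin genes, beside -0.036 over all rows. The progenitor median falls in the gap between Gpr17 (-0.043) and Olig2 (3.81), and no progenitor gene had a difference near it. The arrays of the cell types did not overlap at 7 of the 9 genes, 4 with all NPC arrays above and 3 with all below, which held for 26.1% and 32.6% of all rows. In bulk RNA a smaller number of cells that carry a transcript and a lower amount per cell cannot be told apart.

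**Figure D1:**
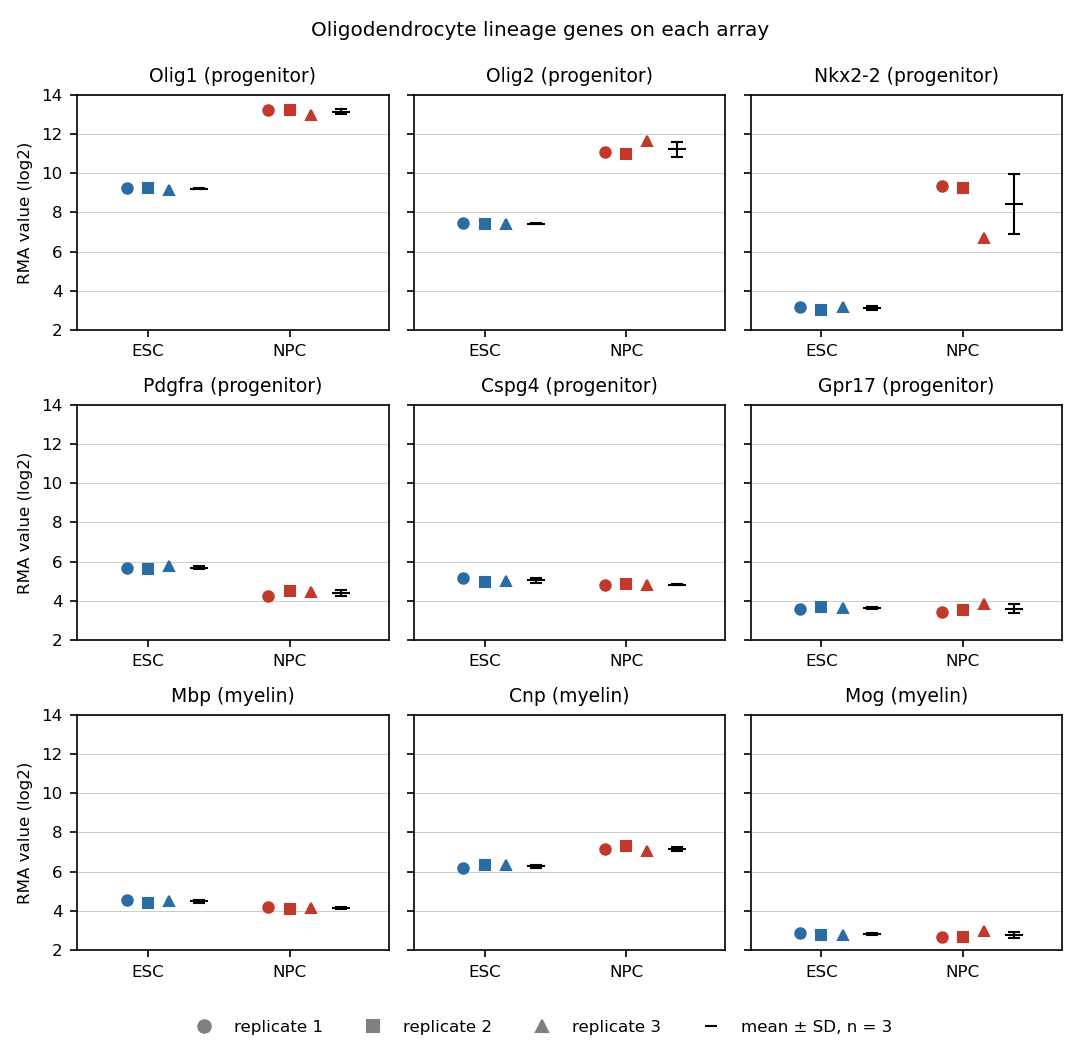
RMA value on the log2 scale (vertical axis) of each of the 9 genes on the 3 ESC arrays (blue) and the 3 NPC arrays (red), with symbols for the replicates and black bars for the mean ± SD of 3 arrays. Olig1, Olig2 and Nkx2-2 stand well above their ESC values on every NPC array, Pdgfra stands below, and the values of Gpr17 and Mog overlap between the cell types.

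Few defining markers of the cell types could be named, and the names came from tables made up almost entirely of genes that rose, so the markers that were higher in NPCs had to be so and do not check the labels. Pou5f1, the pluripotency factor OCT4, had log2 values of 12.42, 12.45 and 12.46 in ESCs and 3.68, 3.83 and 3.61 in NPCs. Fabp7, a radial glia gene, read 3.72 to 3.85 in ESCs and 12.76 to 13.53 in NPCs, and the intermediate filament genes Nes and Vim were also called higher. Arrays of ESCs correlated with each other across genes at r = 0.996 to 0.998 and NPC replicates 1 and 2 at 0.997, but NPC replicate 3 correlated with them at 0.978 and 0.979. It differed from their mean by more than 1 on the log2 scale at 4.00% of the rows, and at 1.80% it lay lower by that much. The members' values, and those of the other genes it moves by more than 0.8, are therefore given array by array or also without it. The lower quartile of an array's values lay between 3.92 and 4.08, and no detection calls were used, so that a value in that range does not show whether the transcript was present. A fold or difference over such a value is one of array values, and may understate the change in the transcript.

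Olig1 and Olig2 encode basic helix-loop-helix factors, and lie next to each other on chromosome 16 with no other protein-coding gene starting between them in the RefSeq table (GRCm38.p6). OLIG2 is needed to specify motor neurons and oligodendrocytes, and OLIG1 acts mainly in oligodendrocyte maturation. Olig1 (row ENSMUSG00000046160_at) had log2 values of 9.23, 9.26 and 9.17 on the ESC arrays and 13.21, 13.22 and 12.99 on the NPC arrays. Each NPC array lay at least 3.73 above each ESC array. The difference of means was 3.92 (standard error 0.091, 95% interval 3.70 to 4.13, adjusted p = 1.68e-07, limma), or 15.1-fold. The ESC values were not at the low end of the arrays, since 90.5% of the rows stood at or below Olig1 there (mean of 3 arrays, SD 0.086), and in NPCs 99.9% did. Such a percentile ranks probe brightness and not amounts of transcript, and what gave the ESC signal was not tested.

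Olig2 (row ENSMUSG00000039830_at) had log2 values of 7.45, 7.41 and 7.42 in ESCs and of 11.07, 10.96 and 11.67 in NPCs. The ESC arrays lay within 0.044 of each other, and all NPC arrays were at least 3.51 higher, with replicate 3 the highest. The means differed by 3.81 on the log2 scale (standard error 0.18, 95% interval 3.38 to 4.24, adjusted p = 3.80e-06, limma), or 14.0-fold, and by 3.59 without NPC replicate 3. As for Olig1, the ESC values stood above most of the array, with 71.7% of the rows at or below them (mean of 3 arrays, SD 0.45).

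Nkx2-2 (row ENSMUSG00000027434_at) encodes a homeodomain factor of the ventral neural tube that later promotes oligodendrocyte differentiation. Its log2 values were 3.16, 3.00 and 3.16 on the ESC arrays and 9.38, 9.24 and 6.68 on the NPC arrays. The ESC values lay under the lower quartile of their arrays, with 7.28% of the rows at or below them (mean of 3 arrays, SD 1.37). Every NPC array was at least 3.52 above every ESC array, but the NPC arrays themselves spanned 2.69. The difference of means was 5.33 (standard error 0.67, 95% interval 3.75 to 6.90, adjusted p = 0.000455, limma), or 40.1-fold in array values. With ESC values this low, that fold may understate the change in the transcript. NPC replicate 3 weighed heavily on the difference. The mean of replicates 1 and 2 stood 73.5-fold above the ESC mean and replicate 3 stood 11.9-fold above it, under the same limit. Under a Welch test with no moderation of the variances the gene was not called (adjusted p = 0.0693), and in the other alternatives its adjusted p lay between 2.94e-09 and 0.00408.

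**Figure D2:**
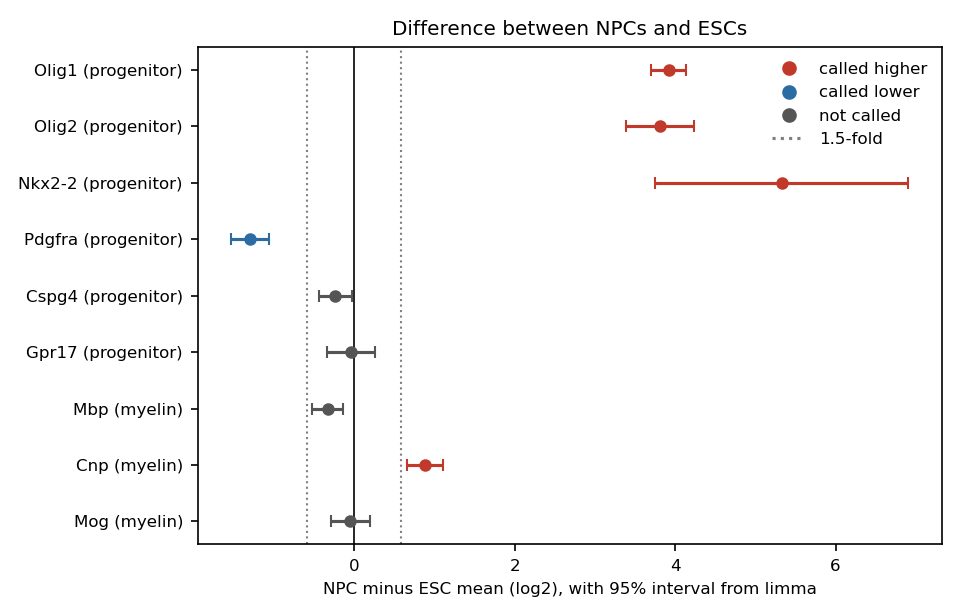
Difference of the NPC mean from the ESC mean on the log2 scale (horizontal axis) for each gene, with the 95% interval from limma as bars, colored by the call. The intervals of Olig1, Olig2 and Nkx2-2 lie far to the right of the dotted 1.5-fold line and that of Pdgfra to the left of the opposite line, while Cspg4, Gpr17, Mbp and Mog lie between the lines.

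The 250 bases before the transcription start of 4 called genes are shown because SOX2 and POU factors, the subject of the study, bind regulatory DNA. They come from RefSeq (build GRCm38.p6), are written 5′ to 3′ on the strand of the gene, and carry in capitals any match to the SOX motif CTTTGTT or the octamer ATGCAAAT, searched on both strands with no overlap between motifs. Of the 9 genes, 6 had such a window, and Olig1, the other called gene, was not among them. Olig2 and Nkx2-2 rose in NPCs, Pdgfra fell, and Cnp was the single myelin gene that rose.
Olig2, chr16:91225300-91225549, plus strand: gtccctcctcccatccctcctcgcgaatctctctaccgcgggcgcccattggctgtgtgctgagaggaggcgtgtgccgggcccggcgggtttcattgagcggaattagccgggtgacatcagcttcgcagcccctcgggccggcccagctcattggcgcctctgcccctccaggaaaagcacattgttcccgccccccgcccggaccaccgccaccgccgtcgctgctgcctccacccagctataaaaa
Nkx2-2, chr2:147186403-147186652, minus strand: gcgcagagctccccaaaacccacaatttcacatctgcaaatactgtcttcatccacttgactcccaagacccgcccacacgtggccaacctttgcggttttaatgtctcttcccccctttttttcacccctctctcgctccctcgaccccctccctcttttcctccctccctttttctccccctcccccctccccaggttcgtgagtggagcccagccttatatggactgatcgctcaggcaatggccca
Pdgfra, chr5:75152001-75152250, plus strand: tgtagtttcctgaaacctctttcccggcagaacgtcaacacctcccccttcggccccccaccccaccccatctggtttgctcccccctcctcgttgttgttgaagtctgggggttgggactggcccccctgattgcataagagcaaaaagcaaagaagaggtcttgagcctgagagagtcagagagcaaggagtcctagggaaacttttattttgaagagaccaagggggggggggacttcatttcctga
Cnp, chr11:100574689-100574938, plus strand: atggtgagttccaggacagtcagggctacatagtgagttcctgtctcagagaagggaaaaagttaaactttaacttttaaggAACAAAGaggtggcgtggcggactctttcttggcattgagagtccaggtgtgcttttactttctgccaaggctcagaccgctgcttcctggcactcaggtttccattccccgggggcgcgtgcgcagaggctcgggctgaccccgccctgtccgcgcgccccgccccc
Only the Cnp window held a motif, 1 SOX match on the reverse strand, read here as AACAAAG from base 168 to base 162 before the start. Over 32851 windows of this length, 5.03% held the SOX motif and 1.60% the octamer. The Olig2 window was rich in CpG dinucleotides, with 22, against 8 for Nkx2-2, 4 for Pdgfra and 13 for Cnp, and 86.7% of the windows had as many as Olig2 or fewer. The windows of Cspg4 and Mog, which are not shown, held 12 and 2, and the median of all windows was 6. These are matches of letters, and distal enhancers were not searched. The paper found most SOX2 sites away from transcription starts. BRN2, the POU factor it studied in NPCs, was missing from most promoters that SOX2 bound there. In NPCs, the paper reports binding of both factors at putative enhancers downstream of Olig1. It also names Nkx2-2 among the genes nearest to enhancers that SOX2 bound in ESCs, there in a poised state.

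None of the 3 genes for surface proteins of oligodendrocyte precursors was called higher, with 1 called lower and 2 not called. Pdgfra (row ENSMUSG00000029231_at) encodes the receptor through which PDGF drives precursor division, and is also made by mesenchymal and extraembryonic endoderm cells. It had log2 values of 5.70, 5.63 and 5.76 in ESCs and 4.23, 4.52 and 4.47 in NPCs. All NPC arrays lay below all ESC arrays, by at least 1.12. The gene fell by 1.29 on the log2 scale in NPCs (standard error 0.10, 95% interval -1.53 to -1.06, adjusted p = 4.03e-05, limma), which is 2.45-fold. About the middle of the array in ESCs, where 49.3% of the rows stood at or below it, the gene was at 33.6% in NPCs (means of 3 arrays, SD 0.77 and 2.56). With NPC values this low, the fall may understate the change in the transcript.

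Cspg4 (row ENSMUSG00000032911_at) encodes NG2, a proteoglycan of precursors and of pericytes. Its log2 values were 5.18, 4.96 and 4.99 in ESCs and 4.80, 4.83 and 4.80 in NPCs. Although every NPC array was below every ESC array, the smallest gap was only 0.12, less than the 0.22 that the ESC arrays spanned. The difference of -0.23 (standard error 0.087, 95% interval -0.44 to -0.027, adjusted p = 0.0623, limma) did not pass the test. Gpr17 (row ENSMUSG00000052229_at) encodes a G protein-coupled receptor of committed precursors. It read 3.57, 3.69 and 3.63 in ESCs and 3.40, 3.51 and 3.85 in NPCs, so the cell types overlapped, with NPC replicate 3 the highest of the 6 arrays and replicate 1 the lowest. Its difference was -0.043 (standard error 0.13, 95% interval -0.34 to 0.26, adjusted p = 0.818, limma). All its values lay below the lower quartile of their arrays, so that the interval does not bound the change in the transcript.

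Among the myelin genes, Cnp differed from Mbp and Mog in its direction or its call. Cnp (row ENSMUSG00000006782_at) encodes cyclic nucleotide phosphodiesterase, an enzyme of oligodendrocyte membranes that appears before compact myelin. It had log2 values of 6.18, 6.34 and 6.31 in ESCs and 7.13, 7.29 and 7.06 in NPCs, with all NPC arrays at least 0.73 above the ESC arrays. The rise was 0.88 (standard error 0.093, 95% interval 0.66 to 1.10, adjusted p = 0.000194, limma), or 1.84-fold, so that a threshold of 2-fold would leave it out. Mbp (row ENSMUSG00000041607_at), which encodes the protein that compacts myelin, read 4.53, 4.38 and 4.52 in ESCs and 4.18, 4.11 and 4.15 in NPCs. All NPC values were below all ESC values, and the difference of -0.33 (standard error 0.080, 95% interval -0.52 to -0.14, adjusted p = 0.0112, limma) was past the p threshold but only 1.26-fold in size. Mbp stood low on the arrays. In ESCs 32.7% of the rows lay at or below it, and in NPCs 29.2% (means of 3 arrays, SD 1.04 and 0.59). The difference may therefore understate the change in the transcript. With each array centred on its median the Mbp difference was -0.18, with an adjusted p of 0.102. Over all the alternatives that kept the gene its adjusted p lay between 0.00662 and 0.102, and it also exceeded 0.05 without ESC replicate 1 (0.0537).

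Mog (row ENSMUSG00000076439_at) encodes a glycoprotein of the outer surface of the myelin sheath. Its log2 values were 2.86, 2.78 and 2.76 in ESCs and 2.66, 2.65 and 2.94 in NPCs, and the arrays overlapped. The values were near the bottom of the arrays in both cell types, with between 0.968% and 4.59% of the rows at or below them. The difference was -0.048 (standard error 0.10, 95% interval -0.29 to 0.20, adjusted p = 0.751, limma), and at values this low the interval does not bound the change in the transcript.

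The NPC arrays did not move together at every gene. Nkx2-2 was the only one of the 9 genes at which NPC replicate 3 differed by more than 1 on the log2 scale from the mean of replicates 1 and 2. The distance was -2.62 there, or 6.17-fold lower, and 19 of the 17144 rows, Nkx2-2 included, were lower in this array by as much or more. Olig2 went the other way, with replicate 3 higher by 0.65, a distance that 792 rows equalled or passed. The distance was -0.22 at Olig1, while Gpr17 and Mog were higher by 0.40 and 0.29. The remaining members, Pdgfra, Cspg4, Mbp and Cnp, lay between -0.15 (Cnp) and 0.093 (Pdgfra). Between replicates 1 and 2 the widest gap among the 9 genes was 0.28, at Pdgfra. A single array has no replicate, so none of these distances was tested.

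**Figure D3:**
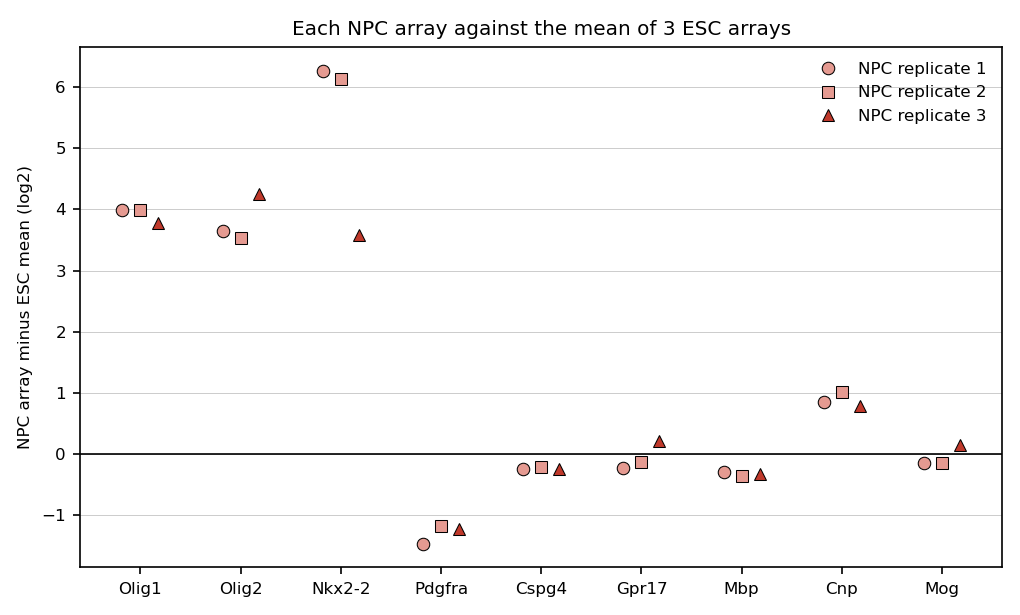
Value of each NPC array minus the mean of the 3 ESC arrays on the log2 scale (vertical axis), with a symbol for each replicate and replicate 3 in dark red. At Nkx2-2, replicate 3 minus the mean of replicates 1 and 2 is -2.62, and at Olig2 it is 0.65.

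Some other markers shifted in the same array. In NPC replicate 3 the log2 value of Dcx, a gene of migrating neuroblasts, was 3.76 against 4.86 and 5.06 in replicates 1 and 2, and 3.33 to 3.68 in ESCs. Slc1a3, the glutamate transporter of radial glia and astrocytes, was 9.80 there against 8.66 and 8.72. Replicate 3 minus the mean of replicates 1 and 2 was only 0.50 at Aldoc, the other astrocyte gene that could be named. That distance was 0.72 at Fabp7, -0.069 at Nes and -0.18 at Vim. Sox9, a glial factor, was higher in replicate 3 by 1.27, the largest such distance among the 14 other lineage genes described below. Of those 14, replicate 3 lay above the mean of replicates 1 and 2 at 9 and below it at 5, with Id2 at -0.91. The Dcx value in replicate 3 lay under the lower quartile of that array (3.93), as its ESC values did on theirs. It therefore does not show whether the Dcx transcript was present there. A shift between cell types was not tested, nor was the part of these genes in the Nkx2-2 value. Of the marker lists, 1 of 7 neuron genes, 2 of 6 astrocyte genes and 1 of 8 fibroblast and pericyte genes could be named, too few to sum a list. The fibroblast and pericyte gene that could be named, Fbn1, read 4.70 to 5.01 in ESCs and 7.69 to 8.07 in NPCs. Since a name was at hand almost only for genes that rose, the direction of the named genes of these lists was set by the naming, and the share of such cells in the cultures was not tested.

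The wider lineage could be followed only in part. A list of 23 other progenitor and lineage genes had 14 that could be named, and all 14 were called higher in NPCs. Names were at hand almost only for genes that rose, so this count says nothing of the other 9 genes or of the list as a whole. Ptprz1, a receptor phosphatase of radial glia and oligodendrocyte precursors, read 3.59 to 3.95 in ESCs and 10.51 to 11.19 in NPCs, a log2 difference of 6.96. The ESC values of Ptprz1 lay under the lower quartile of their arrays, so this difference may understate the change in the transcript. Fyn, a kinase that signals in oligodendrocyte differentiation, differed by 4.21, and Qk, an RNA-binding protein required for myelination, by 2.53. Among the SOX factors, Sox8, a relative of SOX10, read 6.58, 6.59 and 6.66 in NPCs and at most 3.42 in ESCs. Sox5 and Sox6, which restrain precursor differentiation, differed by 1.80 and 3.32, and Sox9 by 3.57, or 3.15 without NPC replicate 3. Bcas1, a gene of newly forming oligodendrocytes, stood between 4.57 and 4.77 in ESCs and at 6.78, 6.87 and 7.69 in NPCs, a difference of 2.43 or, without replicate 3, of 2.14. Id2, an inhibitor of helix-loop-helix factors that restrains oligodendrocyte differentiation, differed by 2.78, or 3.09 without replicate 3. None of the 16 other myelin and mature oligodendrocyte genes listed, which include Mag, could be named, and they were not analyzed here. Of the PDGF ligands and the second receptor, 1 of 5 could be named: Pdgfc, which encodes a ligand of the PDGF alpha receptor. Pdgfc differed by 2.35 (standard error 0.23, adjusted p = 0.000122, limma), or 2.63 without replicate 3. Since a name was at hand almost only for genes that rose, this direction was set by the naming and makes no contrast with Pdgfra.

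**Figure D4:**
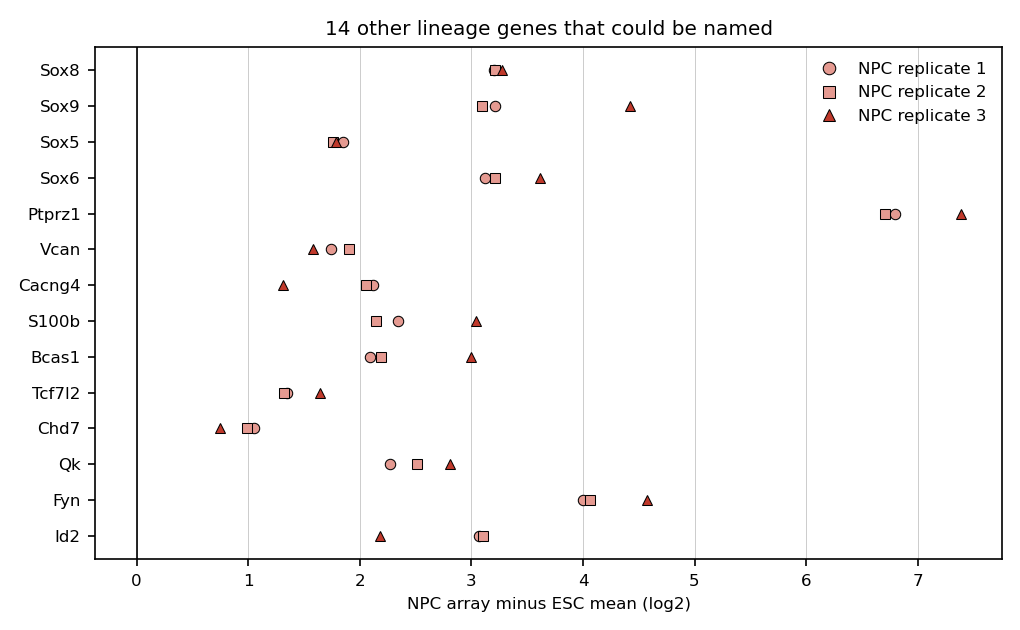
Value of each NPC array minus the ESC mean on the log2 scale (horizontal axis) for the 14 other progenitor and lineage genes that could be named, with a symbol for each replicate. All points lie to the right of 0, and replicate 3 lies above the mean of replicates 1 and 2 at 9 genes, farthest at Sox9 (1.27), and below it at 5, farthest at Id2 (-0.91).

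The genes whose profiles over the 6 arrays were most like those of the members were taken from the 2004 rows with names, by the root mean square distance after each gene was centred on its ESC mean. For Olig2 these were Nfib, an NF-I factor gene (distance 0.080), and Tmem35 (0.11). For Olig1 they were Eid1 (0.086) and Kcnd3 (0.12). Nkx2-2 had no close match: the nearest were Clic5 (0.51) and Hmcn1 (0.54), both lower in NPC replicate 3 than in the other NPC arrays. Clic5 read 9.84, 9.99 and 6.97 in NPCs and Hmcn1 read 9.39, 9.33 and 8.09. For Cnp the nearest were Tmub2 (0.037) and Tmem66 (0.038). Since 2000 of the named rows had a higher mean in NPCs, near matches of Pdgfra among genes that fell could hardly be searched for, and the nearest named row was Pou2f1 (0.13).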

How the data were processed

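RNA from 3 ESC and 3 NPC samples, labelled as biological replicates, was hybridized to Affymetrix mouse arrays. The authors deposited RMA output on the log2 scale, in which the background is removed, probe distributions are equalized across arrays and probes are summarized by Ensembl gene (BrainCDF annotation). Neither the version of this annotation nor its genome build is given in the sources used here. The table holds 17208 rows, of which 64 control rows were left out. No further normalization was applied. Arrays hold no counts, and 3 arrays per group limit the precision.

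The main test was limma (version 3.58.1, under R 4.3.3), with lmFit and eBayes and without covariates (Benjamini-Hochberg over 17144 rows), and calls used the thresholds of the study's methods. The test was checked on simulated data. An exact permutation test of 3 against 3 arrays cannot go below p = 0.1 and was not used. The members and lists were chosen with earlier results of these data known, and 2 genes of the lists are not reported here. Symbols of the 9 members came with their identifiers, and other symbols from rows of the study's tables whose 6 values equalled a deposited row within 0.0001 (2004 rows, including 4 members). The named genes are the members, the listed genes with a symbol, and the 2 nearest profiles of each called member. All 9 symbols were in the RefSeq gene table. Python 3.11.15 with pandas 2.3.3 compiled the tables, and matplotlib 3.10.9 drew the plots.

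The alternatives were the moderated Welch test of the study's methods (rebuilt), an unmoderated Welch test, limma with a mean-variance trend or robust variances, blocking on the replicate number, quantile normalization, median centring, filters at the lower quartile and the median, thresholds of 2-fold and of no fold change, and each array left out in turn.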

Additional observations from a re-analysis of the deposited data

How the results depend on the processing

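Olig1 and Olig2 were called higher in NPCs in all 17 alternatives, and Pdgfra was called lower in the 16 that kept it. The filter at the median removed Pdgfra, so that 0 progenitor genes were called lower there, and it removed Cspg4, Gpr17, Mbp and Mog as well. The Nkx2-2 difference of 5.33 was not called under the unmoderated Welch test. A 2-fold threshold left out Cnp (0.88), so that 0 myelin genes were called higher. With no fold threshold Mbp (-0.33) was called, so that 1 myelin gene was called lower. The sign of Gpr17 turned to 0.0076 under quantile normalization and to 0.11 under median centring, and that of Mog turned to 0.11 under median centring, and neither was called in any alternative. When single arrays were left out, the differences lay between -0.18 and 0.049 for Gpr17, between -0.14 and 0.0019 for Mog and between 4.85 and 6.20 for Nkx2-2, the last without NPC replicate 3. The Cspg4 adjusted p ranged from 0.0424 (moderated Welch test) to 0.537 (quantile normalization), and its difference was -0.075 in the latter and -0.080 under median centring. Median centring moved the median of all differences by 0.15, to 0.12, and turned the split of all called rows from 2638 higher and 3213 lower to 3302 and 2642. With a 2-fold threshold, 1615 rows were called higher and 1977 lower.

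The replicate numbers recur in both cell types, but deviations of same-numbered arrays from their group means correlated across genes at 0.026, 0.011 and -0.0064, which gives no sign that the numbers pair the samples. In the fit with the replicate block the differences were the same by construction, 2649 rows were called higher and 3218 lower, and the calls of the members did not change: 3 progenitor genes higher, 1 lower, and 1 myelin gene higher.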
